A study of Mus musculus with 6 samples.

Results

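The 10 genes described here, Gad1, Gad2, Slc32a1, Pvalb, Sst, Npy, Vip, Cck, Reln and Lhx6, are genes by which GABAergic interneurons of the hippocampus are recognised. They were chosen by name. Every row of the isoform count table whose transcript name, without its final number, was exactly one of these symbols was taken. This gave 47 of 133944 isoforms and 10 of 53354 gene symbols. RNA was sequenced from the hippocampi of 6 C57BL/6 mice aged 3 months, 3 of them N-cre and 3 N-cre;Fox1. All 6 mice carried Cre recombinase under the nestin promoter, which the study describes as restricted to neurons in the hippocampus, and it was not aimed at interneurons. The N-cre;Fox1 mice also carried one R26-Fox1 allele, a copy of the Rbfox1 cDNA in the Gt(ROSA)26Sor locus that the CAG promoter expresses once Cre has removed a loxP-flanked stop cassette, and Rbfox1 is a neuronal RNA-binding protein that regulates splicing and mRNA stability. The targeted line was made in 129/sv embryonic stem cells and backcrossed to C57BL/6, and each mouse was 1 library.

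GABAergic interneurons are the inhibitory neurons of the hippocampus. They make GABA from glutamate with the glutamate decarboxylases, load it into synaptic vesicles with the vesicular transporter, and are told apart by the calcium-binding proteins and peptides they carry. Their subclasses inhibit different parts of the principal cells: parvalbumin cells the cell body and its surroundings, somatostatin cells the dendrites, and many VIP cells other interneurons. The genes are not equally specific, since Cck is also expressed in pyramidal neurons and Reln in Cajal-Retzius cells.

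Total expected counts per library ranged from 40463587 to 62141336. The gene sum of Rbfox1 was 288, 273 and 277 CPM (counts scaled to normalised library sizes) in N-cre mice and 300, 256 and 288 CPM in N-cre;Fox1 mice. This sum overlapped and did not show which libraries carried the transgene, so the genotypes rest on the labels. Replicate 1 of each genotype had Xist at 443 and 415 CPM, against 0.326 to 0.416 CPM in the other 4 mice. Summed choroid plexus markers stood at 2250 CPM in N-cre replicate 3 and 5060 CPM in N-cre;Fox1 replicate 2, against 26.6 to 36.6 CPM in the others. Dentate granule cells were represented in every library, with C1ql2, one of their markers, at 50.9 to 59.3 CPM.

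None of the 10 genes differed between the genotypes at an adjusted p under 0.05 by edgeR's quasi-likelihood test, fitted over 18924 genes of which 5 (0.0264%) passed. DESeq2 and limma-voom also called 0 of the 10. Log2 fold changes of the gene sums lay between -0.21 and 0.13 with a median of -0.01, against a median of 0.00 over all genes tested, and 4 were positive and 6 negative. Vip was the 1 gene of the 10 with an unadjusted p under 0.05, where 6.19% of all genes had one. It was also the 1 gene of the 10 whose CPM did not overlap between the genotypes, as was the case for 12.1% of all genes. Both counts are close to those shares. In whole tissue, fewer cells of a type and less RNA per cell cannot be told apart.

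**Figure D1:**
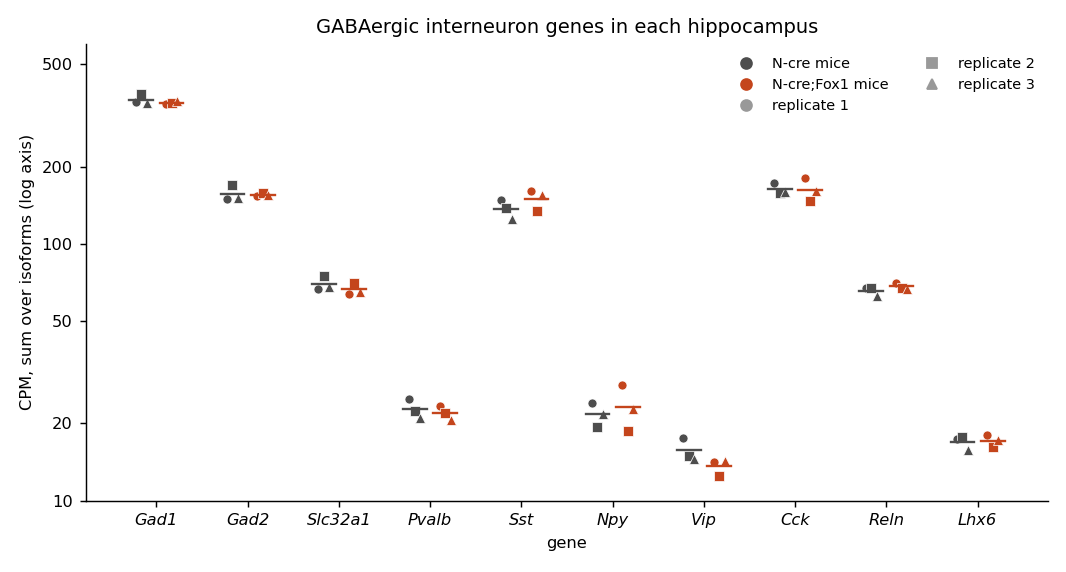
CPM of each gene (sum over its isoforms, log axis) in every N-cre (3) and N-cre;Fox1 (3) mouse, with symbols for the replicate number and lines for group means. The genotypes overlap in every gene but Vip, which was 14.6 to 17.5 CPM in N-cre and 12.5 to 14.3 CPM in N-cre;Fox1 mice.

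Levels were compared between genes only per length, as TPM, a length-corrected abundance computed from the expected counts and annotated isoform lengths. The 2 peptide genes Cck and Sst had the highest levels, with medians over the 6 mice of 543 and 464 TPM. Their ranges over mice, 504 to 607 TPM for Cck and 406 to 519 TPM for Sst, overlapped, so the order of these neighbours was not separated. Gad1 followed at 265 TPM and Npy at 92.2 TPM. Gad2 had a median of 63.7 TPM, Slc32a1 of 56.3 TPM and Pvalb of 53.4 TPM, and in this run each gene overlapped with the next. Reln at 40.3 TPM, Vip at 22.0 TPM and Lhx6 at 13.0 TPM stood last, with no overlap between neighbours. Lhx6, a transcription factor of interneurons from the medial ganglionic eminence, was thus 41.8-fold lower than Cck. The place of Reln depends on which isoforms are counted: over protein-coding isoforms alone its median was 8.67 TPM, the lowest of the 10.

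**Figure D2:**
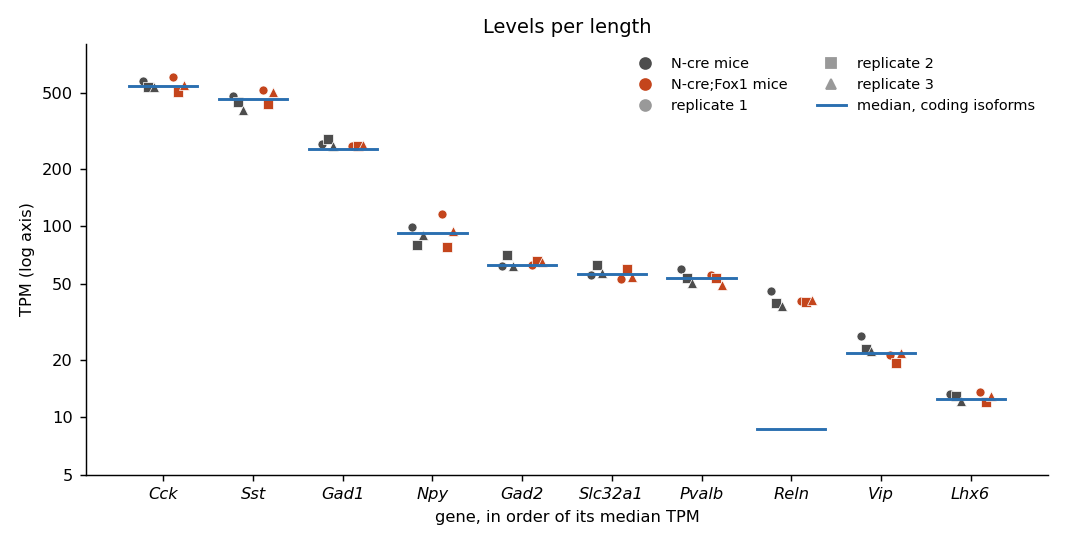
TPM (log axis) of each gene in each mouse, with genes in order of their median, and blue lines for the median over protein-coding isoforms alone. Reln is the gene where the line lies far below the points, at 8.67 against 40.3 TPM.

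Gad1 and Gad2 encode the enzymes GAD67 and GAD65, which make GABA in the cell body and at the synaptic terminal. Gad1 (ENSMUSG00000070880.10, chr2:70553072-70602014, plus strand, mm10) was 357, 382 and 352 CPM in N-cre mice and 350, 352 and 359 CPM in N-cre;Fox1 mice. The highest value was that of N-cre replicate 2, and the other 5 mice lay within a few percent of each other. Relative to N-cre mice the log2 fold change was -0.04 (SE 0.0416, adjusted p = 0.941 by edgeR), and the 95% interval of the difference ran from -8.75% to 3.69%. Gad2 (ENSMUSG00000026787.3, chr2:22622205-22693874, plus strand) was 149, 170 and 151 CPM in N-cre mice and 153, 158 and 155 CPM in N-cre;Fox1 mice. All 3 N-cre;Fox1 values fell inside the N-cre range. For Gad2 the log2 fold change was -0.01 (SE 0.0490, adjusted p = 0.987 by edgeR), with an interval of -8.10% to 6.85%.

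Slc32a1 (ENSMUSG00000037771.11, chr2:158610767-158615748, plus strand) encodes VGAT, the transporter that fills synaptic vesicles with GABA. It was 67.0, 75.1 and 67.8 CPM in N-cre mice and 63.9, 70.6 and 64.9 CPM in N-cre;Fox1 mice. Replicate 2 was the highest of each genotype, and the groups overlapped through it. Slc32a1 differed by -0.07 on the log2 scale (SE 0.0533, unadjusted p = 0.203, adjusted p = 0.907 by edgeR). Without the 2 mice with high choroid plexus markers it was -0.14, with an adjusted p of 0.816.

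Pvalb (ENSMUSG00000005716.16, chr15:78191114-78206400, minus strand) encodes parvalbumin, the calcium buffer of fast-spiking basket and axo-axonic cells. It was 24.9, 22.3 and 21.0 CPM in N-cre mice and 23.4, 22.0 and 20.6 CPM in N-cre;Fox1 mice. The spread inside each genotype was larger than the difference of the means, 22.7 ± 1.98 against 22.0 ± 1.41 CPM (SD, n = 3 each). For Pvalb the log2 fold change was -0.05 (SE 0.0732, adjusted p = 0.970 by edgeR).

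Of the peptide genes, Sst (ENSMUSG00000004366.4, chr16:23889573-23890958, minus strand), which encodes somatostatin, was 148, 138 and 125 CPM in N-cre mice and 161, 134 and 155 CPM in N-cre;Fox1 mice. Replicate 1 was the highest of each genotype, and N-cre;Fox1 replicate 2, the mouse with the most choroid plexus RNA, lay inside the N-cre range. On the log2 scale Sst differed by 0.13 (SE 0.0877, unadjusted p = 0.200, adjusted p = 0.907 by edgeR), the highest of the 10 genes. It was 0.14 without both mice with high choroid plexus markers (unadjusted p = 0.0108, adjusted p = 0.658) and 0.14 without both mice with high Xist. With single mice left out it lay between 0.07, without N-cre replicate 3, and 0.20, without N-cre;Fox1 replicate 2, and it was 0.08 without N-cre;Fox1 replicate 1.

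Npy (ENSMUSG00000029819.6, chr6:49822710-49829507, plus strand) encodes neuropeptide Y, a peptide of neurogliaform, ivy and many somatostatin cells that neurons also raise with activity. It was 24.1, 19.4 and 21.8 CPM in N-cre mice and 28.3, 18.7 and 22.7 CPM in N-cre;Fox1 mice. The N-cre;Fox1 mice held both the highest and the lowest value of all 6. Npy varied most of the 10 genes, with a 1.52-fold range over the mice and an SD of log2 CPM of 0.214, larger than that of 97.0% of the 10233 genes with a mean of at least 10 CPM. Between the genotypes Npy differed by 0.09 on the log2 scale (SE 0.17, adjusted p = 0.974 by edgeR), and its interval, -20.6% to 43.1%, was the widest of the 10.

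Vip (ENSMUSG00000019772.5, chr10:5639218-5647617, plus strand) encodes vasoactive intestinal peptide, which marks interneurons that mostly contact other interneurons. It was 17.5, 15 and 14.6 CPM in N-cre mice and 14.1, 12.5 and 14.3 CPM in N-cre;Fox1 mice. Every N-cre;Fox1 value lay below every N-cre value, with 14.6 and 14.3 CPM as the nearest pair. With all mice the log2 fold change was -0.21 (SE 0.0865, unadjusted p = 0.0379, adjusted p = 0.799 by edgeR), with an interval of -24.1% to -0.954%. Leaving out N-cre replicate 1, the highest mouse, gave -0.11 (unadjusted p = 0.205). Leaving out N-cre;Fox1 replicate 2, the lowest, gave -0.15 (unadjusted p = 0.112), and without both mice with high Xist it was -0.14. With a term for Xist in the fit it was -0.20, and without both mice with high choroid plexus markers it was -0.19 (unadjusted p = 0.0659).

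Cck (ENSMUSG00000032532.7, chr9:121489824-121495694, minus strand) encodes cholecystokinin, carried by basket cells rich in cannabinoid receptors and by pyramidal neurons. It was 172, 158 and 159 CPM in N-cre mice and 180, 147 and 161 CPM in N-cre;Fox1 mice. Means were 163 ± 7.63 and 163 ± 16.7 CPM (SD, n = 3 each). Cck had a log2 fold change of 0.00 (SE 0.0743, adjusted p = 1.0 by edgeR), and its 95% interval ran from -0.17 to 0.17. Genes of glutamatergic principal neurons, as a list, summed to 6370 to 6810 CPM in N-cre mice and to 5940 to 6930 CPM in N-cre;Fox1 mice, with the lowest sum, like the lowest Cck, in N-cre;Fox1 replicate 2.

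Of the 10 genes 4, Pvalb, Sst, Npy and Cck, were highest in replicate 1 of both genotypes, the mice with high Xist. Gad1, Gad2, Slc32a1, Vip, Reln and Lhx6 were not. No share over all genes is given beside this count, so it is not read as a trait of interneuron genes. A link of this pattern to Xist was not tested. With a term for Xist in the edgeR fit, 0 of the 10 genes passed an adjusted p of 0.05.

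Reln (ENSMUSG00000042453.14, chr5:21884454-22344702, minus strand) encodes reelin, a large secreted glycoprotein of neurogliaform and other interneurons. Its sum over all 15 isoforms was 67.3, 67.4 and 62.7 CPM in N-cre mice and 70.7, 67.6 and 66.6 CPM in N-cre;Fox1 mice. Over all isoforms the log2 fold change was 0.05 (SE 0.0401, adjusted p = 0.908 by edgeR). Cajal-Retzius markers summed to 6.30 to 12.1 CPM in N-cre and 6.23 to 12.3 CPM in N-cre;Fox1 mice, so that list overlapped too. The highest sum of each genotype was in its mouse with high choroid plexus markers, and a link between the 2 lists was not tested.

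Lhx6 (ENSMUSG00000026890.19, chr2:36081953-36105408, minus strand) was 17.4, 17.7 and 15.7 CPM in N-cre mice and 18.0, 16.2 and 17.2 CPM in N-cre;Fox1 mice. The values were interleaved. Lhx6 had a log2 fold change of 0.02 (SE 0.0687, adjusted p = 0.989 by edgeR), with an interval of -8.95% to 12.5%.

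**Figure D3:**
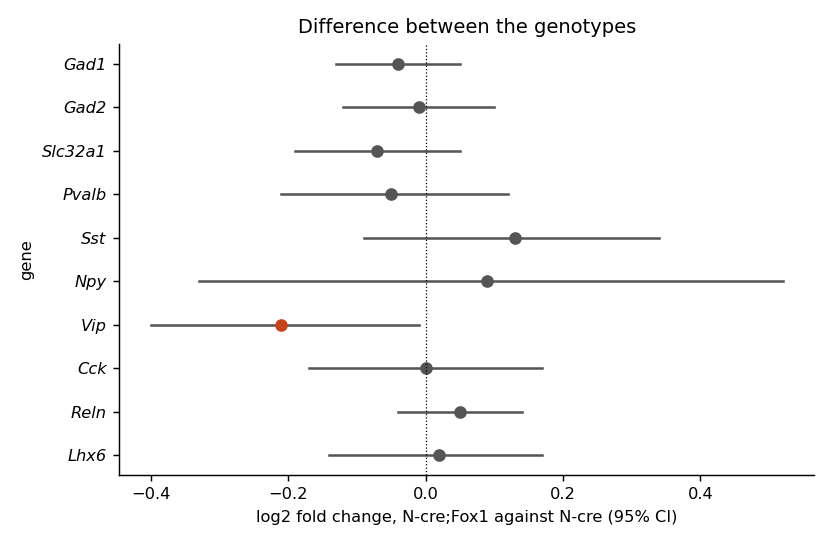
Log2 fold change of each gene sum, N-cre;Fox1 against N-cre, with its 95% confidence interval from edgeR. The interval of Vip (-0.40 to -0.01, red) is the 1 of 10 that leaves out 0, and that of Npy (-0.33 to 0.52) is the widest.

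Subclass genes were also set against GABA synthesis, as the ratio of their expected counts to the sum of Gad1 and Gad2 in the same library. Sst counts were 29.2, 25.1 and 24.9% of that sum in N-cre mice and 31.9, 26.2 and 30.0% in N-cre;Fox1 mice. Vip counts were 3.45, 2.72 and 2.91% in N-cre mice and 2.80, 2.45 and 2.78% in N-cre;Fox1 mice. Both sets overlapped between the genotypes, unlike the CPM of Vip. Over all isoforms, none of the 8 ratios separated the genotypes, while 2 did over protein-coding isoforms alone, as given below. Exact permutation tests over all isoforms (two-sided, 3 against 3 mice, smallest p possible 0.1) gave p from 0.2 to 0.9. Adjusted over the 8 ratios, these lay between 0.8 and 0.9.

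At the level of isoforms, 42 of the 47 had a count above zero in some mouse and 27 were abundant enough to be tested. edgeR called 0 of the 27 at an adjusted p under 0.05, as it called 0 of all 50556 isoforms (0.0%), and 1 of the 27 had an unadjusted p under 0.05, against 4.78% of all. That isoform, Lhx6-202, was called by DESeq2 and is described below. CPM did not overlap between the genotypes in 2 of the 27, Vip-201 and Lhx6-202, against 11.5% of all isoforms. Shares of the gene's counts did not overlap in 4 of the 24 tested member isoforms whose gene had other isoforms above zero, against 11.0% of all such isoforms. These were Lhx6-202, Cck-202, Reln-203 and Reln-207. RSEM divides reads shared by isoforms, so the isoforms of a gene are not independent of each other.

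The full-length Gad1 isoform, Gad1-201 (ENSMUST00000094934.10, 17 exons), held 85.4, 87.0 and 93.9% of Gad1 counts in N-cre mice and 93.2, 91.1 and 92.5% in N-cre;Fox1 mice. N-cre replicates 1 and 2 were low and replicate 3 was the highest of all 6. The difference of the means was 3.50 percentage points (88.8 ± 4.54 against 92.3 ± 1.06%, SD, n = 3 each, exact permutation p = 0.4, two-sided). The rest was mainly Gad1-206 (ENSMUST00000140478.1), a processed transcript without a coding sequence that begins at another first exon. It held 12.1, 10.8 and 3.26% of Gad1 counts in N-cre mice and 3.70, 6.52 and 4.87% in N-cre;Fox1 mice. Gad1-206 had a log2 fold change of -0.85 (SE 0.505, adjusted p = 0.990 by edgeR), and it moved to -1.47 without both mice with high choroid plexus markers and to -0.39 without both with high Xist. Among protein-coding Gad1 isoforms alone, the mean share of Gad1-201 differed by -0.0678 points in N-cre;Fox1 mice.

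Gad1 also has an alternative exon of 80 bases (chr2:70584420-70584499, mm10, plus strand), held by Gad1-203, Gad1-205 and Gad1-207, that brings a stop codon into the reading frame. Transcripts with such an exon are known from the embryonic brain and encode a short product without the catalytic part. It is shown from its first base to the stop, in capitals, to make the early stop visible, from GENCODE's transcript sequences:
Gad1 alternative exon (chr2:70584420-70584456): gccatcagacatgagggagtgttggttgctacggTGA
The coding sequence of these isoforms has 223 codons, against 593 in Gad1-201. They held 0.341, 0.396 and 0.476% of Gad1 counts in N-cre mice and 0.467, 0.412 and 0.378% in N-cre;Fox1 mice, which overlapped.

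Lhx6 transcripts differ in their first exon and in a cassette exon of 104 bases (chr2:36087368-36087471, mm10, minus strand) before the last exon. As 104 is not a multiple of the codon length, the exon shifts the reading frame, and the last exon is then read to a different stop. The exon and both readings of the start of the last exon, with the stop codon in capitals, are given because the isoforms that set the Lhx6 result turn on them:
Lhx6 cassette exon: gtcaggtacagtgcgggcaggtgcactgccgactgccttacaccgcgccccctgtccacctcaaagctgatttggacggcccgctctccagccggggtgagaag
last exon after the cassette exon (chr2:36084055-36084075): gtcatcctttttcagtacTAA
last exon with the cassette exon skipped (chr2:36083996-36084075): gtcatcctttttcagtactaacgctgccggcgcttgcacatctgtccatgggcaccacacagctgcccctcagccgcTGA
From the distal first exon, the reading frame had 392 codons with the exon (Lhx6-201) and 377 without it (Lhx6-205).

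Lhx6-204 (ENSMUST00000112966.9), from the proximal first exon and without the cassette exon, was the most abundant Lhx6 isoform, at 48.6, 57.7 and 62.8% of Lhx6 counts in N-cre mice and 60.1, 59.0 and 69.5% in N-cre;Fox1 mice. Lhx6-202 (ENSMUST00000112961.9), from the proximal first exon and with the cassette exon, had 162, 28 and 17 expected counts in N-cre mice and was rounded to 0 in all 3 N-cre;Fox1 mice. N-cre replicate 1 thus held most of it. Lhx6-203, another isoform with the exon, was not tested and went the same way, at 76, 6 and 4 counts against 0. Lhx6-201, the most abundant isoform with the exon, did not. It had 234, 280 and 184 counts in N-cre mice and 258, 359 and 244 in N-cre;Fox1 mice, with overlapping CPM. For Lhx6-202 edgeR gave an unadjusted p of 0.00464 and an adjusted p of 0.833, limma-voom an adjusted p of 0.873, and DESeq2 an adjusted p of 4.27e-05. Settings other than DESeq2 gave adjusted p from 0.463 to 1.0. No fold is given, since counts of isoforms that share reads depend on how RSEM divided them, and the part of that division in the 0 was not tested.

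The 3 isoforms with the cassette exon were therefore added together. They held 44.0, 39.6 and 32.3% of Lhx6 counts in N-cre mice and 26.6, 38.1 and 24.0% in N-cre;Fox1 mice. N-cre;Fox1 replicate 2 lay among the N-cre values, so that the pooled share overlapped (38.6 ± 5.88 against 29.5 ± 7.5%, SD, n = 3 each). Isoforms from the distal first exon held 29.2 to 40.6% of the counts over the 6 mice, with N-cre values between the lowest and the highest N-cre;Fox1 value.

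Reln has 15 isoforms, and its full-length coding form, Reln-207 (ENSMUST00000161356.7, 65 exons, 3461 codons), held only part of the counts. That share was 56.1, 63.6 and 61.9% in N-cre mice and 64.5, 64.7 and 64.0% in N-cre;Fox1 mice. All 3 N-cre;Fox1 shares were higher than all 3 N-cre shares, by a narrow margin and with N-cre replicate 1 farthest away. Most of the rest was Reln-203, an annotated intron-retaining transcript of 15 exons, at 31.7, 26.4 and 27% in N-cre mice and 26, 24.7 and 24.8% in N-cre;Fox1 mice. Reln-205, a short processed transcript, held 8.08 to 10.9%.

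Summed over protein-coding isoforms alone, Reln was 38.2, 43.5 and 39.6 CPM in N-cre mice and 46.2, 44.6 and 43.0 CPM in N-cre;Fox1 mice. N-cre replicate 2 overlapped with N-cre;Fox1 replicate 3. Over these isoforms the log2 fold change was 0.14 (SE 0.0553, unadjusted p = 0.0306, adjusted p = 0.796 by edgeR). Reln-207 taken alone gave 0.14 (SE 0.0606, adjusted p = 0.990 by edgeR), and 0.08 without both mice with high Xist.

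Vip, Pvalb and Cck had minor isoforms beside a main one. Vip-201, the coding form, held 98.2 to 99.1% of Vip counts, and its log2 fold change was -0.21 (SE 0.10, unadjusted p = 0.0765, adjusted p = 0.990 by edgeR). Pvalb-202, which begins at another first exon, held 12.1, 1.11 and 5.98% of Pvalb counts in N-cre mice and 1.82, 2.09 and 6.60% in N-cre;Fox1 mice, an uneven share in both genotypes. Cck-203, the second most abundant Cck isoform, held 6.34 to 7.73% of Cck counts over the 6 mice, and its shares overlapped between the genotypes. The less abundant Cck-202 held 1.00, 0.980 and 1.2% of Cck counts in N-cre mice and 0.952, 0.960 and 0.864% in N-cre;Fox1 mice, with no overlap.

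**Figure D4:**
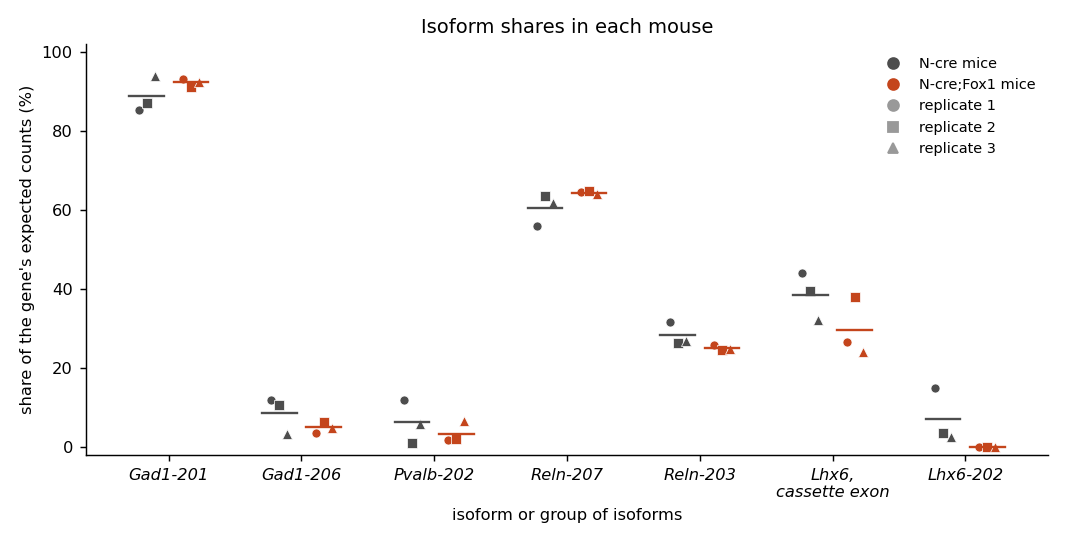
Share of the gene's expected counts (%) held by an isoform, or by the 3 Lhx6 isoforms with the cassette exon, in each mouse, with symbols for the replicate number and lines for group means. Reln-207 (64.0 to 64.7% in N-cre;Fox1 mice) lies above, and Reln-203 and Lhx6-202 below, all N-cre values, while Gad1-201, Gad1-206, Pvalb-202 and the cassette exon of Lhx6 overlap.

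Rbfox proteins bind the short RNA motif written here in DNA letters as TGCATG, so the sense strand of the most abundant isoform of each gene was searched for TGCATG. Only the spliced transcript was searched, without introns. The motif occurred once in Gad1, Slc32a1 and Npy, at 2 places in Gad2 and Reln, and not in Pvalb, Sst, Vip, Cck or Lhx6. Of 50377 tested isoforms with a sequence, 43.2% held it. Among isoforms within 10% of the same length the share was 60.8% for Gad1, 78.5% for Gad2, 52.6% for Slc32a1, 14.8% for Npy and 92.4% for Reln. For the genes without a match it was 58.5% for Lhx6, 33.0% for Vip, 22.2% for Pvalb, 17.2% for Sst and 16.7% for Cck. The matches of the GABA synthesis and transport genes lie in the coding sequence, apart from 1 of the Gad2 matches, and that of Npy lies in the 3′ UTR. The 2 matches of Reln also lie in the coding sequence and, like the 3′ UTR match of Gad2, are not shown. The others are shown with 10 bases on each side and the motif in capitals, since these letters are what an Rbfox protein could read:
Gad1-201, coding: aacctttggcTGCATGtggatgctgc
Gad2-201, coding: tgcaaccagaTGCATGcttcctacct
Slc32a1-201, coding: cgaattccacTGCATGatgaactgga
Npy-201, 3′ UTR: gtcccaccaaTGCATGccaccactag
The shorter motif GCATG, which every TGCATG contains, occurred 2 times in Vip, 6 times in Lhx6 and once in Cck, and not in Pvalb or Sst. It was held by 76.7% of the tested isoforms with a sequence, and by 76.0% of isoforms of like length for Vip and 94.7% for Lhx6. A match is a description of the letters and not of binding.

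The wider GABA system was read from 4 lists of related genes, and 0 of their 61 tested genes passed an adjusted p of 0.05 by edgeR. Of 10 genes listed under GABA handling, which include transporters, enzymes of GABA breakdown and proteins of inhibitory synapses, 2 had positive and 8 negative log2 fold changes (median -0.02). The lowest was Slc6a11, a GABA transporter of astrocytes, at -0.07 (SE 0.0415), and the highest Slc6a13, a GABA transporter of meninges and blood vessels, at 0.31 (SE 0.178). Slc6a13 was 6.36, 4.65 and 5.35 CPM in N-cre mice and 7.08, 8.12 and 5.18 CPM in N-cre;Fox1 mice, highest in the mouse with the most choroid plexus RNA. Its log2 fold change was 0.16 without that mouse, 0.15 without both mice with high choroid plexus markers and 0.48 without N-cre;Fox1 replicate 3. Of 16 interneuron transcription factors 10 were positive and 6 negative (median 0.04), with Dlx2 at -0.27 (SE 0.131, adjusted p = 0.799 by edgeR) and Dlx5 at 0.17 (SE 0.172) as the ends among genes of at least 1 CPM.

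Of 21 tested genes of further interneuron subclasses, 11 were positive and 10 negative, with a median of 0.00. Crh, which encodes corticotropin-releasing hormone, was the highest at 0.20 (SE 0.181), and the receptor tyrosine kinase gene Kit the lowest at -0.10 (SE 0.0771). Of 14 tested receptors and partners of the member peptides and of reelin, 5 were positive and 9 negative (median -0.02). Sstr3, a somatostatin receptor of neuronal cilia, was the 1 gene of the 61 with an unadjusted p under 0.05, a smaller share than the 6.19% of all genes. It was 42.5, 44.3 and 41.8 CPM in N-cre mice and 38.1, 39.0 and 40.2 CPM in N-cre;Fox1 mice, with no overlap. Sstr3 differed by -0.13 on the log2 scale (SE 0.0418, unadjusted p = 0.00911, adjusted p = 0.699 by edgeR). Sstr2, another somatostatin receptor, was at 0.15 (SE 0.0893) and the cholecystokinin receptor gene Cckbr at -0.27 (SE 0.155), the ends of this list among genes of at least 1 CPM, and neither separated the genotypes.

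Markers of other cells and of tissue next to the hippocampus were read beside these values. Striatal genes, which include those of GABAergic projection neurons, summed to 68.5 to 82.5 CPM in N-cre and 56.3 to 103 CPM in N-cre;Fox1 mice, with the highest sum in N-cre;Fox1 replicate 2. Ppp1r1b, which the hippocampus also expresses, made up much of that sum, at 34.5 to 73.4 CPM. Of the 8 genes 1 was positive and 7 negative (median log2 fold change -0.26), and their mean log2 level relative to N-cre mice was -0.47, 0.13 and -0.50 in N-cre;Fox1 replicates 1, 2 and 3. Of these genes, Adora2a was at a log2 fold change of -0.61 (unadjusted p = 0.00809) and Rgs9 at -0.22 (unadjusted p = 0.0484), both with adjusted p above 0.05 by edgeR. Thalamic markers summed to 89.7 to 106 CPM and 85.2 to 107 CPM, and 1 of 8, Slc17a6, had an unadjusted p under 0.05 (log2 fold change -0.21). Astrocyte markers summed to 1470 to 1490 CPM in N-cre and 1560 to 1760 CPM in N-cre;Fox1 mice without overlap, with Gfap, which encodes an intermediate filament protein, at 444 ± 14.9 against 579 ± 60.8 CPM (SD, n = 3 each). Of the 5, Gfap, Aqp4 and Gja1 were positive with unadjusted p under 0.05 (adjusted p = 0.319, 0.595 and 0.756 by edgeR), while Aldh1l1 was at -0.14 and Slc1a3 at -0.02. Activity-regulated genes summed to 548 to 620 CPM in N-cre mice and to 571, 867 and 948 CPM in N-cre;Fox1 mice, with Fosb at 0.65 and Egr4 at 0.58 (adjusted p = 0.761 and 0.693 by edgeR). Oligodendrocyte genes summed to 3500 to 3930 CPM and 3260 to 4090 CPM, microglial genes to 169 to 177 CPM and 164 to 184 CPM, and endothelial genes to 99.2 to 119 CPM and 103 to 130 CPM in N-cre and in N-cre;Fox1 mice. Hippocampal subfield genes summed to 765 to 810 CPM and 692 to 782 CPM, with C1ql2 at a log2 fold change of 0.12 (unadjusted p = 0.0361, adjusted p = 0.799 by edgeR). No gene of any list was at 0 in every mouse. Npy was highest in N-cre;Fox1 replicate 1, the mouse of its genotype with the lowest sum of activity-regulated genes. The part of these lists in the values of the interneuron genes was not tested.

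**Figure D5:**
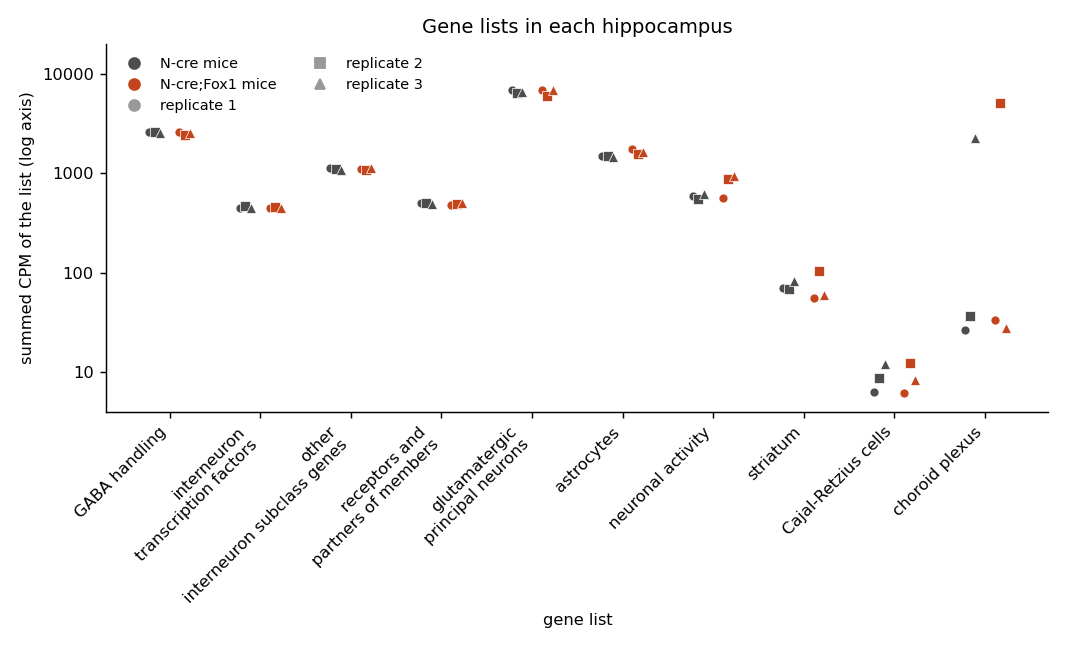
Summed CPM (log axis) of 10 gene lists in every N-cre (3) and N-cre;Fox1 (3) mouse, with symbols for the replicate number. The 4 interneuron lists at the left are nearly level over the mice, while the choroid plexus list stands at 2250 CPM in N-cre replicate 3 and 5060 CPM in N-cre;Fox1 replicate 2.

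The genes whose pattern over the 6 mice was most like that of Npy, by the root mean square difference of centred log2 CPM among 10232 genes with at least 10 CPM, were Lcat (0.0820), Lingo3 (0.0828) and Traip (0.0852), against a median of 0.197. Since they were chosen for this likeness, all 3 were, as was Npy, highest in N-cre;Fox1 replicate 1, at 26.7, 56.5 and 41.6 CPM. Their log2 fold changes were 0.08, 0.00 and 0.10.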

How the data were processed

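Per the labels and the study's methods, total RNA of 6 hippocampi was sequenced after preparation with a stranded kit. The authors removed adapters (Cutadapt 1.18), aligned reads to mm10 (STAR 2.5.2b) and deposited expected counts per isoform from RSEM 1.3.0 with the GENCODE M16 annotation. Whether RSEM counted by strand is not given in the sources used here. Shared reads are divided by a model, so isoform counts are less certain than gene sums, and totals of 40463587 to 62141336 limit low genes.

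Counts were summed by symbol and rounded. Genes and isoforms passing edgeR's filterByExpr (minimum count 10, total 15) were fitted with genotype alone (edgeR 4.0.16, TMM, robust quasi-likelihood, Benjamini-Hochberg adjustment, R 4.3.3), and the code was tested on simulated counts. Alternatives were DESeq2 1.42.0, limma-voom 3.58.1, other filters and scalings, protein-coding isoforms alone, a term for Xist, a replicate block, and mice left out. Exact permutation tests used SciPy 1.17.1. Coordinates, biotypes, lengths and sequences come from GENCODE M21 (130921 isoforms matched with the same version, 2619 with another, 404 unmatched). Sst-201 is among those of another version.

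All 10 genes are described, but not each of their isoforms is given a level or share. Those left out enter the gene sums and the counts of isoforms. Of 15 lists, those named in the text and hippocampal subfields, oligodendrocytes, microglia and endothelium (0 called) were read. Listed genes were named if at the ends of the first 4 lists or at an unadjusted p under 0.05. The genes and lists were chosen with earlier results of these data known. No label says whether mice were littermates, so p-values cover the spread between these mice.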

Additional observations from a re-analysis of the deposited data

How the results depend on the processing

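No interneuron gene passed an adjusted p of 0.05 by edgeR, DESeq2 or limma-voom in any of 180 combinations of gene and alternative (adjusted p from 0.526 to 1.0), and all alternatives gave 0 for the 4 related lists. For the member isoforms only the DESeq2 Wald test differed, with 1 call, Lhx6-202. Some signs turned. Gad1 was at 0.02 over protein-coding isoforms. Cck was at 0.00 with DESeq2 size factors, with no filter beyond 1 count, with at least 10 counts in every mouse and with the DESeq2 Wald test, and at 0.05 without both mice with high choroid plexus genes. Cckbr, at -0.27 with all mice, was at 0.01 without both mice with high Xist. These last 2 alternatives were chosen after seeing the data. With each mouse left out in turn, log2 fold changes ranged from -0.04 to 0.05 for Gad2, -0.10 to 0.03 for Pvalb, -0.07 to 0.23 for Npy, -0.08 to 0.07 for Cck and -0.03 to 0.06 for Lhx6. The difference in the share of Gad1-201 was -0.0678 points among protein-coding isoforms and 1.83 to 6.09 points with a mouse left out. Ratios to Gad1 and Gad2 that separated the genotypes numbered 2 over protein-coding isoforms and 0 to 2 with a mouse left out. No share over all genes is given beside these counts, so they are not read as a result. The causes were not tested.

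Whether replicate numbers pair the mice is not settled. Deviations of same-numbered mice correlated at 0.496, -0.21 and -0.358, and those of N-cre replicate 3 and N-cre;Fox1 replicate 2 at 0.607. Both of the latter had high choroid plexus markers, so such correlations cannot decide on pairing. With a replicate block 0 genes and 0 isoforms were called. In all 3 numbered pairs 4 of 8 ratios moved the same way, again without a share over all genes beside the count.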
